A study of Homo sapiens with 12 samples.

Results

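ERK signalling is restrained by the products of its own target genes, and 9 of those feedback genes are described here in acute myeloid leukaemia cells given SGI-7079. They are the dual-specificity phosphatases DUSP2, DUSP4, DUSP5, DUSP6 and DUSP7, the Sprouty genes SPRY2 and SPRY4, and the SPRED genes SPRED1 and SPRED2. They were chosen by gene symbol from a list drawn up with earlier results of these data known, as 9 of the 36041 genes in the deposited table, and all 9 were among the 21438 genes that passed the filter on low counts and were tested. The study sequenced polyadenylated RNA from MV411 and MOLM13, human cell lines established from acute myeloid leukaemia that both carry the internal tandem duplication of the receptor tyrosine kinase FLT3. SGI-7079 is a synthetic compound described as blocking the receptor kinase AXL. The 4 groups were MV411 with SGI-7079, MV411 with DMSO, MOLM13 with SGI-7079 and MOLM13 with DMSO. SGI-7079 was used at 10 nM for 24 h, and the labels give no time or volume for DMSO. Each group had 3 libraries, labelled as separate biosamples; whether these came from separate cultures was not given, so the p-values measure only how far these libraries scatter, and that scatter may be technical. Each line stands for 1 donor, so a difference between the lines is a difference between these 2 lines.

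A receptor tyrosine kinase such as FLT3 recruits adaptors that load RAS with GTP, and RAS then drives the kinase chain RAF, MEK and ERK. Phosphorylated ERK enters the nucleus and switches on transcription factors, among whose targets are brakes on the same chain. The DUSP proteins remove phosphate from the activated kinases: DUSP6 and DUSP7 act on ERK in the cytoplasm, DUSP5 acts on ERK in the nucleus, and DUSP2 and DUSP4 are nuclear enzymes that also accept other MAP kinases. Sprouty proteins act upstream, between the receptor and RAF, and SPRED proteins bring the RAS GTPase-activating protein neurofibromin to the membrane. Because these genes are transcribed when ERK is active, their mRNAs, above all DUSP6, are widely used as a readout of the pathway, and oncogenic FLT3 is known to drive that pathway in myeloid leukaemia.

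Promoter windows from the RefSeq table (GRCh38.p14) were read for 7 of the 9 genes, all but DUSP4 and DUSP5. The 250 bases before the start site are shown, 5′ to 3′ on the gene's strand, for 4 genes whose values contrast: DUSP6 and SPRY2 fell in both lines, DUSP2 passed the test in MV411 alone, and DUSP7 moved least in MV411. All 4 genes lie on the minus strand, and SPRY2 is shown at the first of its 3 listed start sites. The windows lie at chr12:89352502-89352751 for DUSP6, chr13:80341127-80341376 for SPRY2, chr2:96145441-96145690 for DUSP2 and chr3:52056572-52056821 for DUSP7. None overlapped an annotated exon of its own gene, and exons of other genes were not searched. The genes themselves lie at chr12:89347235-89352501 (DUSP6), chr13:80335976-80341126 (SPRY2), chr2:96143169-96145440 (DUSP2) and chr3:52048919-52056571 (DUSP7) on hg38. Of the remaining genes, DUSP5 lies at chr10:110497907-110511533 and SPRED1 at chr15:38252836-38357249 on the plus strand, and SPRY4 at chr5:142310427-142326455 and SPRED2 at chr2:65310851-65432599 on the minus strand. Capitals mark matches to an ETS core or a CRE half-site.
DUSP6: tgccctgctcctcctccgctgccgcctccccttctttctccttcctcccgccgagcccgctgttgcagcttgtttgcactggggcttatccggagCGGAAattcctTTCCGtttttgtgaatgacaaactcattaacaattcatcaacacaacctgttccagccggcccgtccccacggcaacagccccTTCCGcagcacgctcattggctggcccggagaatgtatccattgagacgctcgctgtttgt
SPRY2: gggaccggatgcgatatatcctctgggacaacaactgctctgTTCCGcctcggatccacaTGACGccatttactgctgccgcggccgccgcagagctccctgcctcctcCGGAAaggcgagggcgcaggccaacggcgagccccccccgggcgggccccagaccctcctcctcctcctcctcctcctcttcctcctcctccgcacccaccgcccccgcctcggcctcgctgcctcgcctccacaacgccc
DUSP2: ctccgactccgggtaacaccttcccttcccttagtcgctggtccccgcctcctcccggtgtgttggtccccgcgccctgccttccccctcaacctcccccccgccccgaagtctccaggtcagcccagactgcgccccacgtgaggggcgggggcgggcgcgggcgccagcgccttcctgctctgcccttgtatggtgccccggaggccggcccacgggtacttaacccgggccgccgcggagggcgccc
DUSP7: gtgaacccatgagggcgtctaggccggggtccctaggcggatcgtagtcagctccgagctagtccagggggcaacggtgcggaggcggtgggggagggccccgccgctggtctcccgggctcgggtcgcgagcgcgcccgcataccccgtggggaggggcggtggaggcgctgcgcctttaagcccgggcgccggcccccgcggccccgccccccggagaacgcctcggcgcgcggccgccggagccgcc
Both strands were searched for 6 motifs: the ETS core CGGAA, the CRE half-site TGACG, the AP-1 site TGANTCA, the STAT site TTCNNNGAA, the FOXO site GTAAACA and, by name, the serum response factor CArG box. The letters of the first 2 were shortened after these sequences had been seen. The DUSP6 window held 3 ETS cores, 155 to 151, 144 to 140 and 61 to 57 bases before the start, the first 2 on opposite strands. The SPRY2 window held 2 ETS cores, 208 to 204 and 141 to 137 bases before the start, and 1 CRE half-site at 190 to 186. At the other listed SPRY2 start sites no searched motif matched. No searched motif matched in the DUSP2 or DUSP7 window, nor in those of SPRED1 and SPRED2, while the SPRY4 window held 1 CRE half-site. The SPRY4 window and the first SPRED2 window overlapped an annotated exon of their own gene. Of all 35116 promoters in the table, cut to the same length, 30.3% held the ETS core, 21.2% the CRE half-site, 6.57% the AP-1 site, 6.57% the STAT site, 2.98% the FOXO site and 1.16% the CArG box. These are matches of letters, and binding was not measured.

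The libraries held between 52352252 and 61862017 counted reads, and no replicate pair was close enough to be 1 library deposited again. All 10 of 10 myeloid and monocytic markers were at 1 CPM or more in every group (CPM, counts scaled to a common library total after TMM, a correction for differences in composition between libraries). Their summed level was 3090 to 3178 CPM in MV411 with SGI-7079 against 2738 to 2864 CPM with DMSO, and 1883 to 1924 CPM in MOLM13 with SGI-7079 against 1334 to 1355 CPM with DMSO. The 10 did not move alike. At an adjusted p under 0.05 in edgeR's test, 5 rose and 3 fell in MV411, and 4 rose and 2 fell in MOLM13. Of all genes tested, 27.2% rose and 24.3% fell in MV411, and 23.2% rose and 23.6% fell in MOLM13. MPO and LYZ were among those that fell in both lines. Markers of T cells, erythroid, epithelial and fibroblast cells each summed to under 1 CPM in every library, and those of B cells to at most 2.71 CPM. The megakaryocyte list, of which ITGA2B and GP9 were in the table, summed to 24.7 to 27.9 CPM in MV411 with SGI-7079 and 11.0 to 12.5 CPM with DMSO, and to 0.62 to 1.21 CPM in MOLM13 with SGI-7079 and 1.81 to 2.23 CPM with DMSO. In MV411 this was nearly all ITGA2B, at means of 25.8 CPM with SGI-7079 and 11.5 CPM with DMSO. In MOLM13 it was mostly GP9, at 0.78 CPM with SGI-7079 and 2.02 CPM with DMSO. The part of these marker levels in the results was not tested. In bulk RNA, fewer cells that express a gene and less RNA of it per cell cannot be told apart.

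In MV411, 7 of the 9 feedback genes fell with SGI-7079 and none rose. DUSP7 and SPRED1 were the genes that did not pass. Of the 7, 5 fell by more than 1 on the log2 scale: DUSP2, DUSP5, DUSP6, SPRY2 and SPRY4. Over all genes tested in MV411, 51.5% passed the test: 24.3% fell and 27.2% rose. By more than 1 on the log2 scale 6.08% fell and 11% rose. The median log2 fold change of the 9 genes was -1.27, against 0.11 over all genes tested. In MOLM13, 6 of the 9 fell and none rose, where 46.8% of all genes tested passed, 23.6% falling and 23.2% rising. DUSP5 and SPRY4 fell by more than 1, against 3.44% of all genes (8.94% rose by as much), and the median over the 9 genes was -0.33, against 0.05 over all genes tested. A gene is said to rise or fall at an adjusted p under 0.05 in edgeR's quasi-likelihood test, with Benjamini-Hochberg adjustment over the 21438 genes, and each log2 fold change is given with its standard error.

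**Figure D1:**
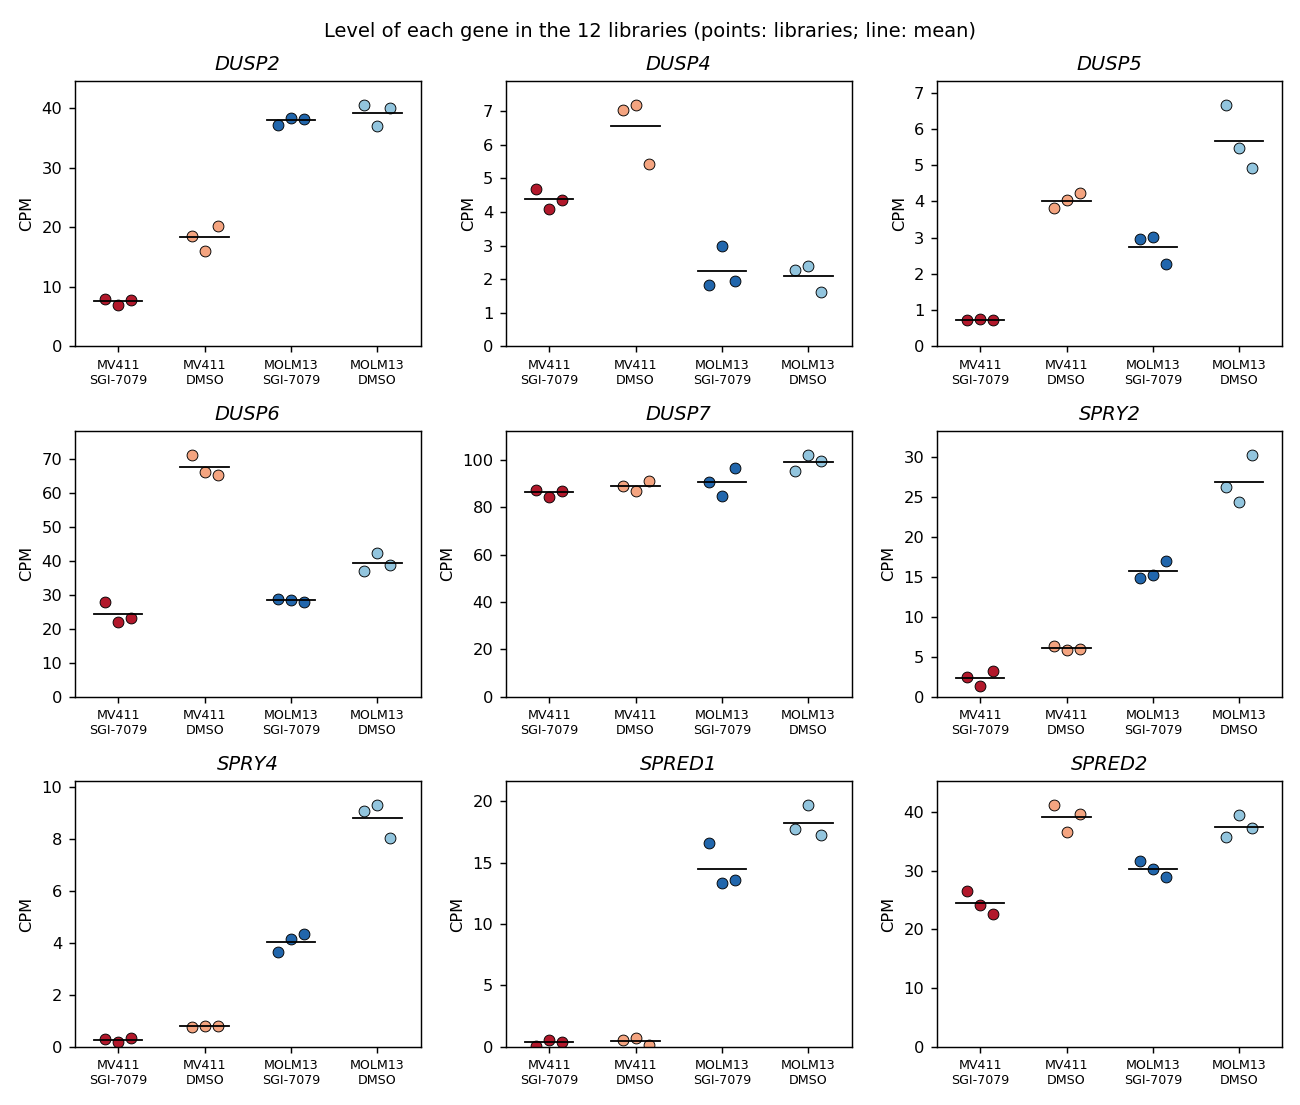
Level of each of the 9 feedback genes in every library (y axis, CPM, linear and from 0; 1 panel a gene), with 3 points and the mean as a bar for each group on the x axis. DUSP6 lies at 22.1 to 27.99 CPM in MV411 with SGI-7079 and at 65.4 to 71.2 CPM with DMSO, while the points of DUSP7 in MV411 overlap between SGI-7079 and DMSO.

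DUSP6, the cytoplasmic phosphatase of ERK, fell in both lines and further in MV411. In MV411 it stood at 27.99, 22.1 and 23.1 CPM with SGI-7079 and at 71.2, 66.4 and 65.4 CPM with DMSO. The highest treated library lay far below the lowest control library. The log2 fold change was -1.47 ± 0.08, a 2.77-fold lower level (adjusted p = 2.84e-09). In MOLM13 the gene stood at 28.8, 28.5 and 27.8 CPM with SGI-7079 and at 37.0, 42.2 and 38.9 CPM with DMSO, again without overlap, and fell by 0.47 ± 0.08 (adjusted p = 0.000241). With SGI-7079 the ranges of the lines overlapped, at 24.4 ± 3.17 CPM in MV411 and 28.4 ± 0.51 CPM in MOLM13 (SD, n = 3 each), whereas with DMSO MV411 had 67.6 ± 3.08 CPM and MOLM13 39.3 ± 2.65 CPM. A long non-coding gene on the opposite strand overlaps DUSP6 and was counted at group means of 1.43 to 3.28 CPM. How the counting treated strand was not given in the labels, so reads of that overlap cannot be told apart.

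DUSP7, a close relative of DUSP6 with the same substrate, had the smallest log2 fold change of the 9 genes in MV411. It stood at 87.4, 84.2 and 87.0 CPM in MV411 with SGI-7079 and at 88.8, 86.8 and 90.9 CPM with DMSO, and these ranges overlapped. The log2 fold change of -0.04 ± 0.04 did not pass the test (adjusted p = 0.454, 95% interval -0.14 to 0.05). In MOLM13 the values were 90.6, 84.7 and 96.3 CPM with SGI-7079 and 95.4, 102 and 99.5 CPM with DMSO. The MOLM13 groups overlapped by 1 library on each side, and the fall of 0.13 ± 0.04 passed narrowly (adjusted p = 0.0295). Neither call of DUSP7 was stable: leaving out 1 library at a time gave adjusted p from 0.0177 to 0.732 in MV411 and from 0.00605 to 0.16 in MOLM13, and scaling to library totals turned the MV411 value to 0.07. That scaling also moved the median of all genes in MV411 by 0.11. Relative to the median of all genes, DUSP7 lay at -0.16 in MV411 and -0.18 in MOLM13. These relative values could not depend on the scaling, which shifts all genes of a comparison alike.

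Of the nuclear phosphatases, DUSP5 had the largest log2 fall of the 9 genes in MV411. DUSP5 is the ERK-selective nuclear member, which also holds ERK in the nucleus. Its level in MV411 was 0.73, 0.75 and 0.74 CPM with SGI-7079, from 42 to 47 counts a library, and 3.81, 4.03 and 4.22 CPM with DMSO. The 3 treated libraries were nearly equal and far under the controls, with a fall of 2.44 ± 0.19 on the log2 scale, or 5.43-fold (adjusted p = 9.4e-08). In MOLM13 it stood at 2.96, 3.01 and 2.29 CPM with SGI-7079 and at 6.65, 5.46 and 4.91 CPM with DMSO. The MOLM13 groups did not overlap either, and the fall was 1.04 ± 0.17 (adjusted p = 0.000218).

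DUSP2, an inducible nuclear phosphatase of blood cells, passed the test in MV411 and not in MOLM13. In MV411 it had 8.01, 6.94 and 7.76 CPM with SGI-7079 and 18.5, 16.1 and 20.3 CPM with DMSO. Every treated library lay under every control, and the fall was 1.27 ± 0.09, or 2.42-fold (adjusted p = 2.71e-08). In MOLM13 it had 37.2, 38.4 and 38.2 CPM with SGI-7079 and 40.5, 37.0 and 40.1 CPM with DMSO. These overlapped, with a log2 fold change of -0.05 ± 0.08 (adjusted p = 0.69, 95% interval -0.22 to 0.13).

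DUSP4, another nuclear phosphatase of several MAP kinases, was low in both lines. It had 4.68, 4.10 and 4.35 CPM in MV411 with SGI-7079 and 7.05, 7.18 and 5.44 CPM with DMSO. The groups did not overlap, and the fall of 0.58 ± 0.22 passed the test (adjusted p = 0.0376), but leaving out any 1 of 4 libraries ended the call (DMSO replicate 1 or 2, SGI-7079 replicate 2 or 3, adjusted p from 0.0705 to 0.108). In MOLM13 it had 1.84, 2.98 and 1.95 CPM with SGI-7079 and 2.27, 2.39 and 1.62 CPM with DMSO. Those values overlapped, and the log2 fold change was 0.11 ± 0.22 (adjusted p = 0.73, 95% interval -0.37 to 0.59); it turned to -0.14 without SGI-7079 replicate 2 and to -0.04 without DMSO replicate 3.

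Both Sprouty genes fell in both lines. SPRY2, an inhibitor that acts between receptor and RAF, had 2.46, 1.35 and 3.15 CPM in MV411 with SGI-7079 and 6.33, 5.86 and 5.91 CPM with DMSO. The treated libraries spread more widely than the controls but stayed under all of them, and SPRY2 fell by 1.38 ± 0.22, or 2.61-fold (adjusted p = 9.47e-05). In MOLM13 SPRY2 had 14.9, 15.2 and 17.01 CPM with SGI-7079 and 26.2, 24.3 and 30.2 CPM with DMSO. It fell by 0.78 ± 0.20 there, with no overlap (adjusted p = 0.00525).

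SPRY4, which inhibits the same step, was at the edge of detection in MV411, with 0.28, 0.19 and 0.35 CPM with SGI-7079 (18, 12 and 20 counts) and 0.75, 0.80 and 0.79 CPM with DMSO (43, 48 and 48 counts). Even so the groups did not overlap, and it fell by 1.5 ± 0.22, or 2.83-fold (adjusted p = 4.9e-05). With limma on log2(FPKM + 1), where the pseudocount lies far above its FPKM in MV411, the value was -0.09 (adjusted p = 0.0772). SPRY4 overlaps a non-coding gene on the other strand, SPRY4-AS1, with the same doubt over strand as for DUSP6. In MOLM13 SPRY4 was higher throughout, at 3.66, 4.13 and 4.35 CPM with SGI-7079 and 9.05, 9.28 and 8.05 CPM with DMSO. The MOLM13 fall of 1.12 ± 0.18, or 2.17-fold, also left the groups apart (adjusted p = 0.000161).

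Of the SPRED genes, SPRED2 fell in both lines and SPRED1 did not pass the test in either. SPRED2 had 26.6, 24.1 and 22.7 CPM in MV411 with SGI-7079 and 41.1, 36.6 and 39.7 CPM with DMSO, and fell by 0.68 ± 0.07 (adjusted p = 2.02e-06). Its MOLM13 values were 31.7, 30.4 and 28.9 CPM with SGI-7079 and 35.8, 39.4 and 37.3 CPM with DMSO. The groups were apart in both lines, and the MOLM13 fall was 0.31 ± 0.07 (adjusted p = 0.00256).

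SPRED1, whose loss of function causes a RASopathy in humans, was nearly absent from MV411. It had 6, 36 and 21 counts there with SGI-7079 and 31, 43 and 9 counts with DMSO, all under 1 CPM. The groups overlapped widely, with a log2 fold change of -0.43 ± 0.52 (adjusted p = 0.526, 95% interval -1.55 to 0.69). Leaving out 1 library moved this value between -1.05 (without SGI-7079 replicate 2) and -0.04 (without SGI-7079 replicate 1), and none of these passed the test. In MOLM13 it had 16.6, 13.3 and 13.6 CPM with SGI-7079 and 17.7, 19.7 and 17.3 CPM with DMSO. These groups did not overlap, but the fold change of -0.33 ± 0.36 missed the threshold in the fit of all 12 libraries (adjusted p = 0.489, 95% interval -1.10 to 0.44). In a fit of the 6 MOLM13 libraries alone the same value of -0.33 had an adjusted p of 0.0243.

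**Figure D2:**
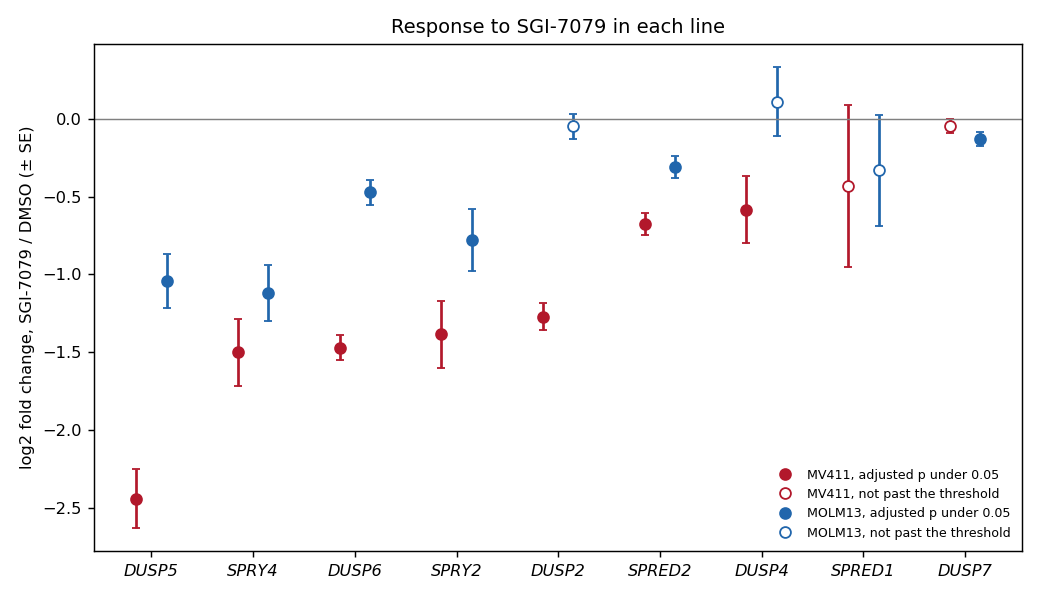
Log2 fold change of SGI-7079 over DMSO for each of the 9 genes in MV411 and MOLM13, as points with bars for their uncertainty. In MV411 the values run from -2.44 for DUSP5 to -0.04 for DUSP7, and the wide intervals of SPRED1 cross 0 in both lines.

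The response differed between the lines for 4 of the 9 genes, each with the larger fall in MV411. The test of the difference, MV411 minus MOLM13, gave -1.23 ± 0.12 for DUSP2 (adjusted p = 9.32e-06) and -1.40 ± 0.25 for DUSP5 (adjusted p = 0.00135). It gave -1.0 ± 0.11 for DUSP6 (adjusted p = 3.45e-05) and -0.37 ± 0.10 for SPRED2 (adjusted p = 0.0169). DUSP5, DUSP6 and SPRED2 fell in both lines and fell further in MV411, and DUSP2 fell in MV411 without passing in MOLM13. No gene of the 9 had a difference past the threshold in the other direction. Over all genes tested, 20.7% passed this test, 11.8% with a lower and 8.85% with a higher response in MV411. DUSP2 and DUSP5 lay past -1, against 1.81% of all genes (1.8% lay past 1 in the other direction), and DUSP6 lay at that bound.

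For DUSP4, DUSP7, SPRY2, SPRY4 and SPRED1 the difference did not pass the test, which does not show that the lines respond alike. SPRY2 had a difference of -0.61 ± 0.29 (adjusted p = 0.177), which became -0.88 (adjusted p = 0.0314) without MV411 SGI-7079 replicate 3 and -0.33 (adjusted p = 0.25) without replicate 2 of that group. SPRY4 had -0.38 ± 0.28 (adjusted p = 0.402), a sign that turned on the FPKM scale (0.37 with limma on log2(FPKM + 1), adjusted p = 0.000757). DUSP4 had -0.69 ± 0.31 (adjusted p = 0.147). DUSP7 had 0.09 ± 0.06 (adjusted p = 0.407) and SPRED1 -0.10 ± 0.62 (adjusted p = 0.96). SPRY2 and SPRY4 thus fell in each line, with no difference in log2 response resolved at this spread.

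The control libraries of the lines already differed in 8 of the 9 genes. DUSP4 and DUSP6 were higher in MV411 than in MOLM13, and DUSP2, DUSP5, DUSP7, SPRY2, SPRY4 and SPRED1 were lower. Of all genes tested, 54.2% differed, 27.7% being higher and 26.5% lower in MV411. Past 1 on the log2 scale, DUSP4 was higher, against 12.9% of all genes, and DUSP2, SPRY2, SPRY4 and SPRED1 were lower, against 9.57% of all genes. These comparisons use the same DMSO libraries as the responses above.

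The widest gap was that of SPRED1, with 0.47 ± 0.29 CPM in MV411 and 18.2 ± 1.26 CPM in MOLM13 (SD, n = 3 each), a log2 fold change of -5.28 ± 0.46, or 38.8-fold lower (adjusted p = 2.86e-07). Without MV411 DMSO replicate 2 the log2 value was -5.73, and without replicate 3 it was -4.85. SPRY4 was 11.2-fold lower in MV411 (-3.49 ± 0.20, adjusted p = 4.63e-09) and SPRY2 4.46-fold lower (-2.16 ± 0.21, adjusted p = 8.27e-07). SPRY2, SPRY4 and SPRED1 were thus all higher in MOLM13. SPRED2 was not, at 39.2 ± 2.30 CPM in MV411 and 37.5 ± 1.83 CPM in MOLM13, with a log2 fold change of 0.06 ± 0.07 (adjusted p = 0.486, 95% interval -0.09 to 0.21).

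The phosphatases were split. DUSP6 was higher in MV411 by 0.78 ± 0.08 (adjusted p = 1.4e-06) and DUSP4 by 1.65 ± 0.22 (adjusted p = 2.54e-05), whereas DUSP2 was lower (-1.10 ± 0.08, adjusted p = 7.5e-08). DUSP7 was lower by the main test (-0.16 ± 0.04, adjusted p = 0.00885), a call lost with library totals (-0.07, adjusted p = 0.164) and with limma on FPKM (-0.07 with either pseudocount, adjusted p = 0.2 and 0.202). DUSP5 was lower in MV411 by the main test (-0.50 ± 0.17, adjusted p = 0.0259), but this call was lost without MOLM13 DMSO replicate 1 (adjusted p = 0.13), MV411 DMSO replicate 1 (adjusted p = 0.0846) or MV411 DMSO replicate 2 (adjusted p = 0.0642), and with library totals (adjusted p = 0.0592).

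Levels of different genes were compared on the authors' FPKM, a level scaled by transcript length and by library depth. In MV411 the order changed at the top. With SGI-7079 DUSP7 led at 15.2 ± 0.24 FPKM and DUSP6 followed at 6.29 ± 0.75, while with DMSO DUSP6 led at 16.2 ± 0.79 and DUSP7 followed at 14.5 ± 0.22 (SD, n = 3 each). The ranges of these neighbours did not overlap in either group. In MOLM13 DUSP2 led in both groups, at 18.2 ± 0.37 FPKM with SGI-7079 and 17.7 ± 0.74 with DMSO, followed by DUSP7 and DUSP6. Neighbours whose ranges overlapped were SPRY2 and DUSP4 and then SPRED1 and SPRY4 in MV411 with SGI-7079, SPRED2 and SPRY2 in MOLM13 with SGI-7079, and SPRED1 and DUSP5 in MOLM13 with DMSO.

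Summed over the 5 phosphatases, the level was 26.2 ± 1.11 FPKM in MV411 with SGI-7079 and 41.7 ± 1.20 FPKM with DMSO, and in MOLM13 it was 41.1 ± 0.42 FPKM with SGI-7079 and 43.98 ± 0.50 FPKM with DMSO. The MOLM13 sums lay closer together than those of MV411. In MOLM13 DUSP2 made up 44.3 ± 0.96% of the sum with SGI-7079 and 40.3 ± 2.01% with DMSO, and DUSP7 made up 36.0 ± 1.77% with SGI-7079 and 34.6 ± 1.06% with DMSO. In MV411 DUSP7 made up 57.8 ± 1.99% of the sum with SGI-7079 and 34.7 ± 0.70% with DMSO, and DUSP6 made up 23.9 ± 1.91% with SGI-7079 and 38.8 ± 1.65% with DMSO. In MOLM13 DUSP6 made up 16.6 ± 0.53% with SGI-7079 and 20.2 ± 1.32% with DMSO. The 4 Sprouty and SPRED genes summed to 5.21 ± 0.32 FPKM in MV411 with SGI-7079 against 8.44 ± 0.41 FPKM with DMSO, and to 11.9 ± 0.17 FPKM in MOLM13 with SGI-7079 against 16.4 ± 0.67 FPKM with DMSO. SPRED2 alone supplied 84.7 ± 5.09% of that sum in MV411 with SGI-7079 and 77.6 ± 0.96% with DMSO. These sums and shares describe mRNA and were not tested.

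**Figure D3:**
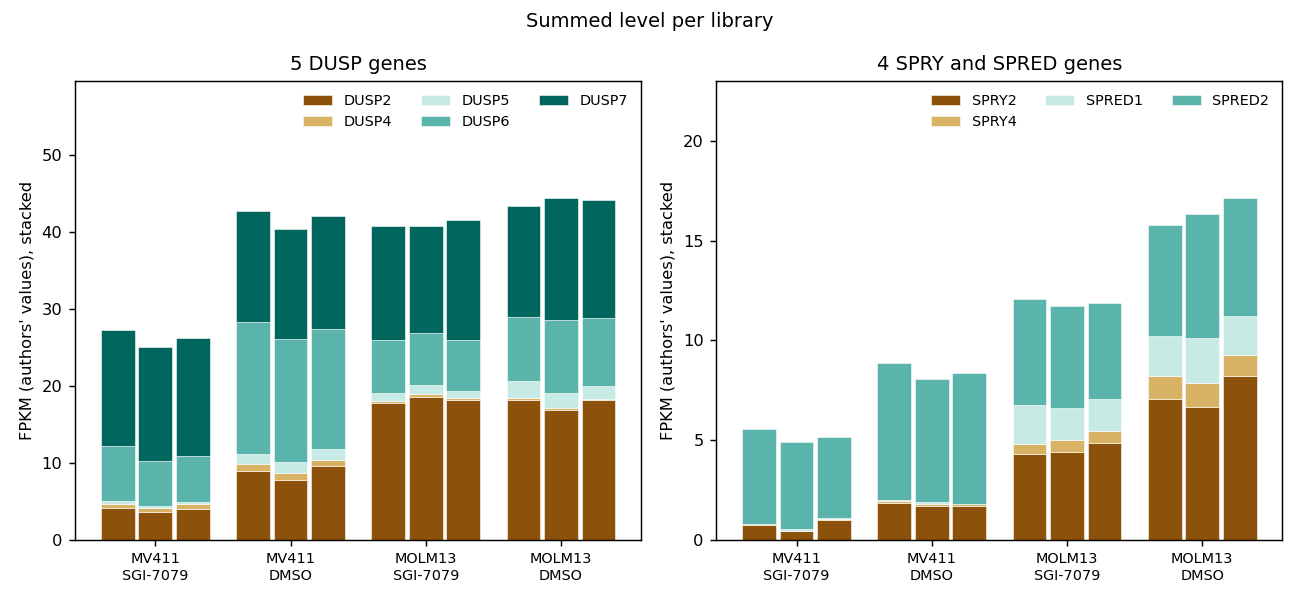
Summed FPKM of the 5 DUSP genes and of the 4 SPRY and SPRED genes (y axis, from 0), stacked by gene, with the groups on the x axis. As the mean of 3 libraries, the DUSP sum is 26.2 FPKM in MV411 with SGI-7079 and 41.7 FPKM with DMSO, with DUSP7 at 57.8% and 34.7% of it.

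Of 12 further DUSP, SPRY and SPRED genes, 11 were tested, and they moved mostly the other way. In MV411 6 rose and 1 fell (median log2 fold change 0.48), where 27.2% of all genes tested rose and 24.3% fell. In MOLM13 6 rose and 1 fell (median 0.42), where 23.2% of all genes tested rose and 23.6% fell. The gene that fell in both was DUSP14, at -1.16 ± 0.11 in MV411 (adjusted p = 1.25e-06) and -0.52 ± 0.11 in MOLM13 (adjusted p = 0.00137). DUSP22, a small atypical phosphatase known to act in JNK signalling, rose by 0.88 ± 0.08 in MV411 (adjusted p = 3.23e-07) and 0.42 ± 0.08 in MOLM13 (adjusted p = 0.000447). DUSP3 rose in MOLM13 by 0.59 ± 0.04 (adjusted p = 9.34e-08) and had a log2 fold change of 0.00 ± 0.04 in MV411 (adjusted p = 0.989). SPRED3, at group means of 0.17 to 2.01 CPM, rose in both lines. Its log2 fold change was 2.44 ± 0.61 in MV411 (adjusted p = 0.00385) and 2.05 ± 0.56 in MOLM13 (adjusted p = 0.00823). SPRY3 rose by 0.89 ± 0.32 in MV411 (adjusted p = 0.0307) and did not pass in MOLM13 (adjusted p = 0.449). SPRY1 passed in neither line.

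Of 17 further ERK transcriptional targets, 16 were tested. In MV411 10 fell and 1 rose (median -1.23, or -1.19 without EPHA2, which had no count in a group and is named for that after its values were seen), and in MOLM13 9 fell and 1 rose (median -0.88). Of all genes tested, 24.3% fell and 27.2% rose in MV411, and 23.6% fell and 23.2% rose in MOLM13. The most firmly called were MYC, FOSL1 and ETV4. MYC fell in both lines, with a log2 fold change of -0.77 ± 0.03 in MV411 (adjusted p = 1.13e-10) and -0.19 ± 0.03 in MOLM13 (adjusted p = 0.000188). FOSL1, an AP-1 subunit, fell in both lines, with a log2 fold change of -1.93 ± 0.11 in MV411 (adjusted p = 4.28e-09) and -0.91 ± 0.11 in MOLM13 (adjusted p = 8.01e-06). ETV4, an ETS factor, fell in both lines, with a log2 fold change of -4.09 ± 0.26 in MV411 (adjusted p = 1.26e-08) and -2.15 ± 0.22 in MOLM13 (adjusted p = 2.57e-06). The exceptions to this direction differed by line. FOS rose by 1.54 ± 0.11 in MOLM13 (adjusted p = 6.48e-08) and had -0.08 ± 0.11 in MV411 (adjusted p = 0.551), while PHLDA1 rose by 1.15 ± 0.15 in MV411 (adjusted p = 2.33e-05) and had -0.34 ± 0.16 in MOLM13 (adjusted p = 0.0971). For IER2 the values were -0.14 ± 0.04 in MV411 (adjusted p = 0.0105) and 0.07 ± 0.04 in MOLM13 (adjusted p = 0.213).

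The 21 genes of the cascade from receptor to ERK moved in both directions, by less than 1 on the log2 scale where they passed the test. In MV411 6 rose and 8 fell (median -0.02), where 27.2% of all genes tested rose and 24.3% fell. In MOLM13 4 rose and 10 fell (median -0.14), where 23.2% of all genes tested rose and 23.6% fell. FLT3 itself rose by 0.36 ± 0.02 in MV411 (adjusted p = 1.79e-08) and 0.93 ± 0.02 in MOLM13 (adjusted p = 7.4e-12). PTPN11, the phosphatase SHP2 that carries the signal to RAS, fell in both lines, with a log2 fold change of -0.58 ± 0.03 in MV411 (adjusted p = 3.64e-09) and -0.55 ± 0.03 in MOLM13 (adjusted p = 1.14e-08). The adaptor GAB2 rose by 0.68 ± 0.04 in MV411 (adjusted p = 3.39e-09) and 0.30 ± 0.04 in MOLM13 (adjusted p = 2.04e-05). GAB1 had 0.40 ± 0.25 in MV411 (adjusted p = 0.21) and fell by 0.76 ± 0.27 in MOLM13 (adjusted p = 0.0342). BRAF rose by 0.40 ± 0.07 in MV411 (adjusted p = 0.000415) and had -0.01 ± 0.07 in MOLM13 (adjusted p = 0.927).

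Among 15 tested of 16 other negative regulators, 5 rose and 6 fell in MV411 (median -0.15), and 1 rose and 4 fell in MOLM13 (median -0.04, or -0.02 without TRIB2, which also had no count in a group and is named after its values were seen). Of all genes tested, 27.2% rose and 24.3% fell in MV411, and 23.2% rose and 23.6% fell in MOLM13. CBLB, a ubiquitin ligase for activated receptors, rose by 1.20 ± 0.09 in MV411 (adjusted p = 5.23e-08) and 1.35 ± 0.09 in MOLM13 (adjusted p = 2.49e-08). PEBP1, the RAF kinase inhibitor protein, fell in both lines, with a log2 fold change of -0.83 ± 0.04 in MV411 (adjusted p = 8.07e-10) and -0.36 ± 0.04 in MOLM13 (adjusted p = 4.75e-06). DOK2, an adaptor that recruits RAS GTPase-activating protein, rose by 0.59 ± 0.04 in MV411 (adjusted p = 4.82e-08) and had 0.07 ± 0.04 in MOLM13 (adjusted p = 0.213). SH2B3, PTPN6 and DOK1 had opposite signs in the lines, with a difference past the threshold. SH2B3 rose by 0.21 ± 0.03 in MV411 (adjusted p = 6.72e-05) and fell by 0.13 ± 0.03 in MOLM13 (adjusted p = 0.00334). PTPN6 fell in MV411 by 0.38 ± 0.04 and DOK1 rose by 0.27 ± 0.04 there, and their MOLM13 values were 0.01 ± 0.04 and -0.04 ± 0.04.

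**Figure D4:**
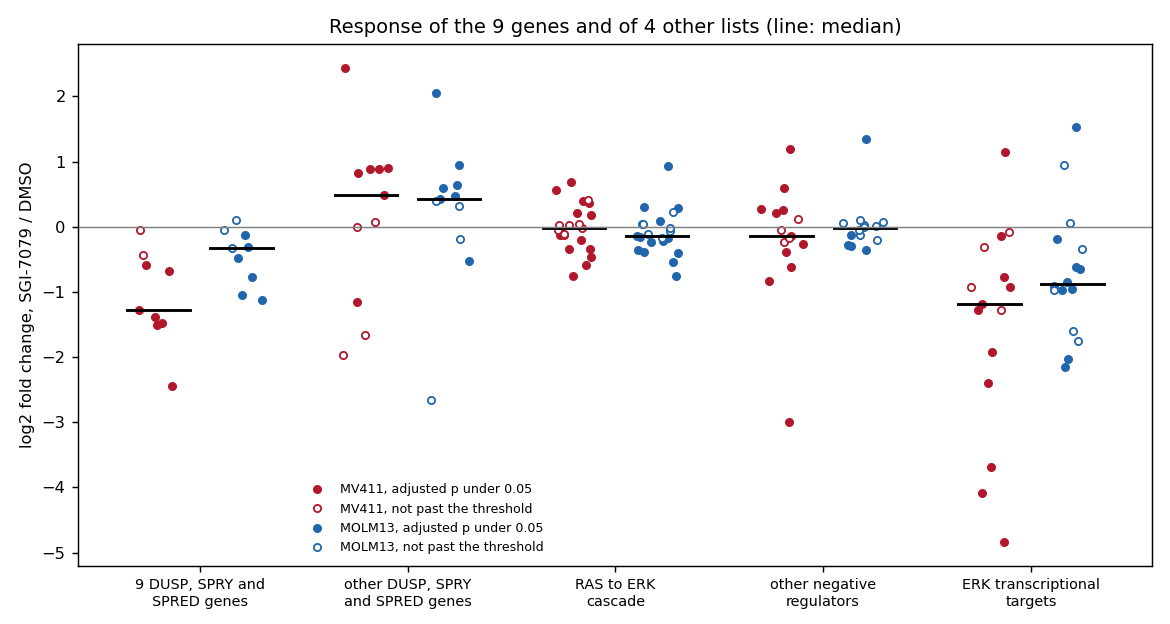
Log2 fold change of SGI-7079 over DMSO (y axis) of every tested gene in each list (x axis), in MV411 and MOLM13, 1 point a gene with the list's median as a bar; genes with no count in a group are left out. The medians of the 9 feedback genes are -1.27 in MV411 and -0.33 in MOLM13, and those of the 11 other DUSP, SPRY and SPRED genes 0.48 and 0.42.

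Across the 12 libraries, the genes whose log2 CPM was most like that of DUSP6, among 11133 genes with at least 5 CPM on average, were THOC3, RBFA, CFL1, FOCAD and TMEM160, with Pearson's r of 0.988 to 0.979. Of the feedback genes that reached that level, SPRED2 had r of 0.872, DUSP2 0.214, SPRY2 0.185, DUSP7 0.176 and SPRED1 -0.187. The 12 libraries form 4 groups, so that these values describe the pattern over 4 group means and carry no test.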

How the data were processed

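Polyadenylated RNA of at least the labels' minimum integrity was sequenced as paired, dUTP-marked libraries. The deposited table holds counts per gene, made with featureCounts per the series' design text, and FPKM values, also deposited by the authors. Per the submitters' processing notes the build was hg38 and the tools included DESeq2, edgeR, StringTie 2.1.6, HISAT2 2.2.1 and cutadapt 1.9, with no role named for each. The strand setting of the counting was not given in those sources. All samples were mapped by their column names.

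Counts of the 12 libraries were fitted together in edgeR 4.0.16 (R 4.3.3; TMM scaling, filterByExpr with a minimum count of 10, quasi-likelihood tests, Benjamini-Hochberg adjustment over 21438 genes), with 1 mean per line and treatment. CPM are TMM-scaled. Intervals are 95% intervals of the fit. The script was tested on simulated data. Alternatives were DESeq2 1.42.0, scaling to library totals, other count filters, limma 3.58.1 on log2 FPKM with a pseudocount of 0.1 or 1, a replicate block, a fit per line and leaving out each library. A result is called past 1 on the log2 scale.

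The 9 genes and the 4 other lists were chosen with earlier results of these data known. All 9 are named, with the 3 genes of smallest adjusted p in each other list and those with opposite signs in the lines and a difference past the threshold. SPRED3, SPRY3 and SPRY1 are named as the remaining SPRED and Sprouty genes, after their values were seen. Gene positions are those of the deposited table on hg38, which GENCODE shares except for SPRED2. Exons are from GENCODE, and promoters from RefSeq (GRCh38.p14).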

Additional observations from a re-analysis of the deposited data

Results flagged for a closer look

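In 4 of the 9 feedback genes the SGI-7079 effect differed between the lines by the test of the difference itself, MV411 minus MOLM13 (edgeR's quasi-likelihood test). DUSP2 differed by -1.23 on the log2 scale, and its treated and control libraries did not overlap in MV411 but did in MOLM13. DUSP5 differed by -1.40, DUSP6 by -1.0 and SPRED2 by -0.37. In each of these 3 genes all treated libraries lay under all control libraries in both lines. The share of all genes with groups apart in this way was not counted. Over all genes tested, 51.5% passed the SGI-7079 test in MV411 and 46.8% in MOLM13. No explanation of these differences was tested.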

How the results depend on the processing

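Of the values of the 9 genes under all alternatives, 695 kept direction and side of the threshold, 24 lost the threshold, 9 gained it and 19 changed sign; the causes were not tested. DUSP7 in MV411 became 0.067 with library totals and 0.065 or 0.061 with limma on FPKM plus 0.1 or 1, and DUSP2 in MOLM13 became 0.04, 0.041 and 0.039. With the same FPKM settings the difference between lines was 0.354 and 0.373 for SPRY4, past the threshold the other way at the larger pseudocount (adjusted p = 0.000757), where its MV411 levels lie under that pseudocount, and 0.123 and 0.145 for SPRED1. Leaving out each library, DUSP4 in MOLM13 ranged from -0.136 to 0.246, and the difference from -0.04 to 0.103 for DUSP7 and from -0.714 to 0.286 for SPRED1. Over all alternatives, members that fell numbered 6 to 8 in MV411, 5 to 7 in MOLM13, 4 to 5 in the difference and 4 to 6 between the lines; 1 member, SPRY4, rose in the difference with FPKM plus 1. That setting also called fewer genes past 1: 582 higher and 543 lower in MV411 (2367 and 1304 in the count test), 268 and 245 in MOLM13 (1917 and 738), 127 and 83 in the difference (385 and 387), 810 and 597 between lines (2757 and 2051). Genes with a higher response in MV411 numbered 1898, against 3172 with FPKM plus 1, 1261 with no filter and 1200 to 1789 without 1 library. DUSP4 in MV411 missed the threshold with library totals (adjusted p = 0.0874). Whether the replicate numbers pair the libraries could not be settled with 3 libraries a group. Within a line, the deviations of same-numbered libraries correlated at -0.017 to 0.101 and those of other-numbered ones at -0.094 to 0.038. Across lines, same-numbered ones correlated at -0.084 to 0.155. With a replicate block 7 members fell in MV411, 6 in MOLM13 and 4 in the difference, as without it.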

Other observations

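The neighbours of SPRED1 were read because of its gap between the lines, and were chosen after its values had been seen. Among the neighbours read, the nearest was FAM98B, 96878 bases away. It had 48.3 CPM in MV411 and 61.8 CPM in MOLM13 with DMSO, a log2 fold change of -0.35, against -5.28 for SPRED1. MEIS2, the next gene read on the other side and 1151537 bases away, was also lower in MV411. It had 14.8 CPM there and 68.7 CPM in MOLM13 with DMSO, a log2 fold change of -2.21 ± 0.05. RASGRP1, 130854 bases away, had -0.09 ± 0.44, at only 0.44 CPM in MV411 and 0.46 CPM in MOLM13 with DMSO. CDIN1, 1442588 bases away, had 0.59 ± 0.11.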
